A study of Homo sapiens with 12 samples.

Results

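The 10 genes described here are non-coding hosts of small nucleolar RNAs (snoRNAs): GAS5, SNHG1, SNHG5, SNHG6, SNHG7, SNHG8, SNHG12, SNHG15, SNHG16 and ZFAS1. They were taken by name from both deposited count tables, which each list 63299 genes, and all 10 were found and passed the filter on low counts. The samples were cultures of LNCaP-shPRMT5, a human prostate cancer line in which doxycycline (Dox) induces a short hairpin RNA against PRMT5, the arginine methyltransferase that places symmetric dimethyl marks on histones and on spliceosomal proteins. The 12 polyA+ RNA-seq libraries formed 4 groups of 3. In the knockdown irradiated group, cells received Dox at 1 µg/mL every 48 h and 2 Gy of ionizing radiation, and were harvested 24 h later. The control irradiated group had the same 2 Gy and harvest with no Dox. The knockdown non-irradiated group had Dox with 0 Gy, and the control non-irradiated group had neither. Every group carried the same hairpin construct, so Dox and the loss of PRMT5 cannot be told apart. The irradiated and non-irradiated libraries came in 2 separate tables, so irradiation and any other difference between the tables cannot be told apart either. Nothing in the labels says that replicates were separate cultures, and p-values therefore measure the spread between these libraries, which may be technical.

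A snoRNA host gene is transcribed by RNA polymerase II and spliced, and the snoRNAs are trimmed out of its introns. C/D box snoRNAs guide methylation of ribose in ribosomal RNA, and H/ACA box snoRNAs guide pseudouridylation. The spliced exons of non-coding hosts are often loaded onto ribosomes and degraded by nonsense-mediated decay, and several of these genes start with an oligopyrimidine tract like that of ribosomal protein genes, which ties their RNA level to growth conditions and to translation. GAS5 was named for its build-up in growth-arrested cells.

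PRMT5 checked the labels. It measured 24.9 to 31.3 CPM (read counts scaled to library size with TMM factors) in knockdown irradiated libraries, against 187 to 230.4 CPM in control irradiated libraries, and 26.6 to 32.8 CPM in knockdown non-irradiated libraries, against 186 to 198 CPM in control non-irradiated libraries. The remaining level was 13.8% after irradiation and 15.7% without it. Library totals ran from 14801939 to 33158865 counts, of which the 10 hosts took 0.0709% to 0.103%, and 3 counts corresponded to 0.0905 to 0.203 CPM. All 8 luminal prostate markers were present, with a summed level of 6367 to 9869 CPM. The summed level of 5 leukocyte markers was at most 0.230 CPM, with CD3E at 0 in every library, and that of 4 basal markers was at most 9.98 CPM. Of 5 fibroblast markers COL1A2 was at 0 in every library, and their sum was 12.2 to 27.2 CPM. Replicate 1 of both irradiated groups stood apart: its chi-square per gene against replicates 2 and 3 was 56.2 to 74.5 in knockdowns and 105 to 129 in controls, while that between replicates 2 and 3 was 8.96 in knockdowns and 12.5 in controls. Values that rest on the irradiated libraries are therefore given again from a fit without both of these libraries, chosen after seeing the data.

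The hosts differ in what their start sites and introns hold, and the stretches around the annotated starts are printed to show what several of them share. RefSeq start windows (GRCh38.p14) were matched by symbol for 8 of the 10 genes. Each line below runs from 40 bases before the start through the first 20 transcribed bases, on the strand of the gene. Capitals mark TATAA lying within 40 bases before the start and a run that opens with C and continues with 4 or more pyrimidines, beginning between 5 bases before the start and the sixth transcribed base. Only the sense strand was searched, and the motifs did not overlap. The genes are SNHG5 (chr6:85678714-85678773, minus strand), SNHG7 (chr9:136728165-136728224, minus), SNHG8 (chr4:118278722-118278781, plus), SNHG12 (chr1:28581854-28581913, minus), ZFAS1 (chr20:49278602-49278661, plus) and SNHG16 (chr17:76557724-76557783, plus).
SNHG5: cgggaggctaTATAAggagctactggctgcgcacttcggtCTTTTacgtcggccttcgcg
SNHG7: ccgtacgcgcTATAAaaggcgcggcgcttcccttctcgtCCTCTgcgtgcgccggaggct
SNHG8: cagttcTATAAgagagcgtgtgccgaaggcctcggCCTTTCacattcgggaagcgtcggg
SNHG12: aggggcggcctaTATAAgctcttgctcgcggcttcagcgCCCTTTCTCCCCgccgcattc
ZFAS1: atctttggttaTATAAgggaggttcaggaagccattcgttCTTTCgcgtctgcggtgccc
SNHG16: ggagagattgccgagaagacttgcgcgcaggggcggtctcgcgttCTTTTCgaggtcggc
TATAA was found in 5 of the 8 windows, against 4.34% of 35116 windows in the whole RefSeq table. The pyrimidine run was found in 6 of 8, against 21.1% of all windows, and both together in 5 of 8, against 0.897%. The motifs were chosen after these sequences had been read, so the shares are descriptions. The windows of SNHG1 and GAS5 held neither. GAS5 has other annotated starts. At its commonest start in GENCODE 29 (chr1:173867989, 6 of 29 transcripts) the RNA begins with 6 pyrimidines, the first a C. That start is outside the RefSeq window and is not in the shares above. The RefSeq start lies 1110 bases from the start in the deposited table for SNHG12, 464 for ZFAS1, 163 for GAS5 and at most 53 for the other 5.

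In the deposited annotation (GRCh38) GAS5 spans chr1:173863900-173868882 on the minus strand, SNHG8 spans chr4:118278709-118279823 on the plus strand and ZFAS1 spans chr20:49278178-49295738 on the plus strand. SNHG1 lies at chr11:62851988-62855914, SNHG12 at chr1:28578538-28582983, SNHG5 at chr6:85660950-85678736, SNHG7 at chr9:136721366-136728184 and SNHG15 at chr7:44983023-44986961, all on the minus strand, and SNHG16 lies at chr17:76557766-76565348 on the plus strand. Part of the exon length of some hosts is shared with genes on the opposite strand. The share is 29.3% in SNHG6 (with MCMDC2), 25.2% in SNHG7 (with FAM69B), 26.1% in ZFAS1 (11.1% with ZNFX1), 1.2% in GAS5 and 0.2% in SNHG12. On the same strand, other genes, hosted snoRNAs among them, share 20.9% of the exon length of ZFAS1, 15.3% of SNHG1, 14.2% of SNHG8 and 11.8% of SNHG12. In SNHG16, 30.1% of the 50-base stretches of its transcripts also occur, read on either strand, in GENCODE 29 transcripts of another gene, mainly AC015802.6. That share is 30.8% in ZFAS1, 27.6% in SNHG7 and 26.7% in SNHG6. It comes mainly from FAM69B in SNHG7, from MCMDC2 in SNHG6 and in part from ZNFX1 in ZFAS1. These are the opposite-strand genes named above, so the 2 kinds of share are not separate there. How the counting treated strand and reads that map to several genes is not given in the sources used here. The counts of hosts with shared stretches are uncertain to that extent. GAS5 shared no 50-base stretch with another gene.

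Per kilobase of exon, GAS5 and SNHG8 had the highest levels. GAS5 had a mean of 88.0 CPM per kb and SNHG8 one of 83.9 CPM per kb over the 12 libraries, and GAS5 was above SNHG8 in 7 of 12. SNHG6 (34.6 CPM per kb), SNHG1 (33.0), ZFAS1 (27.3) and SNHG16 (21.4) followed, then SNHG15 (13.7), and SNHG12 (6.88), SNHG5 (4.89) and SNHG7 (4.81) were lowest. SNHG8 was above SNHG6, SNHG16 above SNHG15, SNHG15 above SNHG12 and SNHG12 above SNHG5 in all 12 libraries. The ranges of neighbours over the 12 libraries overlapped throughout this order, and SNHG6 was above SNHG1 in only 6 of 12 libraries. The range of log2 CPM over the 12 libraries was widest for SNHG6 and SNHG16, at 1.63 and 1.62, and narrowest for GAS5, at 0.70. Both wide ranges had an irradiated replicate 1 as their highest library. By SD of log2 CPM, SNHG8 varied most (0.524), ahead of SNHG6 (0.516) and SNHG16 (0.503).

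**Figure D1:**
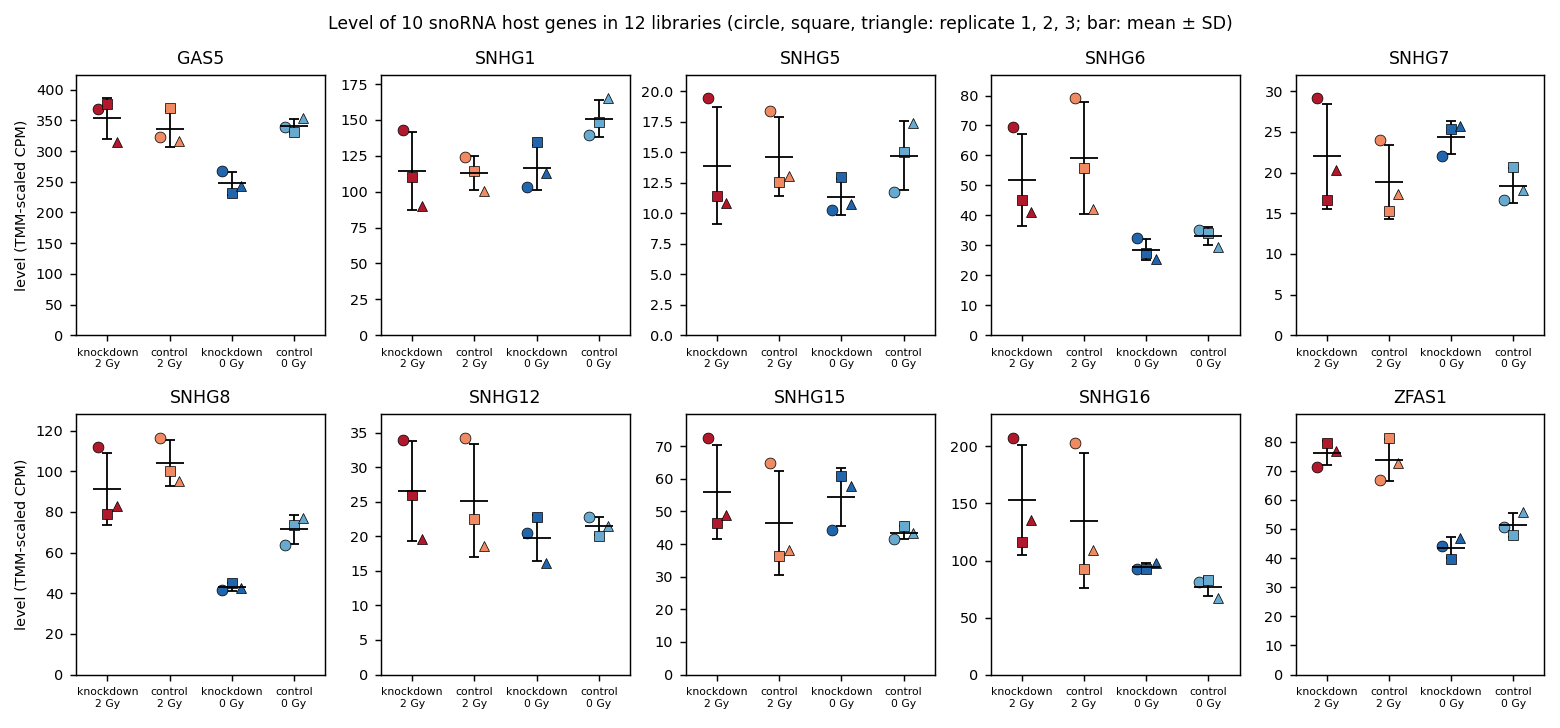
CPM (vertical axes, from 0) of each of the 10 hosts by group, with knockdown left of control and 2 Gy left of 0 Gy; symbols are replicates and bars the mean ± SD. SNHG8 is lowest in the 3 knockdown libraries at 0 Gy, between 41.8 and 45.1 CPM, and SNHG16 is highest in replicate 1 of both irradiated groups, at 208 and 203 CPM.

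The first comparison asks what PRMT5 knockdown did to the hosts in cells that were not irradiated. SNHG8, the host of the H/ACA box snoRNA SNORA24, fell to 0.603 of the control level, and 9 of the 10 hosts did not pass the threshold. That is 1 of 10 called at an adjusted p under 0.05 (edgeR quasi-likelihood test, Benjamini-Hochberg over all 17191 genes tested), where 1.54% of all genes were called, 1.20% lower. In bulk RNA, fewer cells of a type and less RNA per cell cannot be told apart.

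SNHG8 measured 41.8, 45.1 and 42.4 CPM in knockdown libraries, against 63.6, 73.5 and 77.3 CPM in control libraries. The groups did not overlap, and every knockdown library was below the lowest control. The log2 fold change was -0.73 (SE 0.14, edgeR adjusted p = 0.0318). The adjusted p was 0.0484 without control replicate 1, and 0.0574 to 0.137 when any other 1 of the 6 libraries was left out, so the call was lost in 5 of 6 such fits, at log2 fold changes of -0.76 to -0.67. Without both non-irradiated libraries numbered 1 the adjusted p was 0.0749.

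Among the C/D box hosts, GAS5 measured 267, 231 and 244 CPM in knockdown libraries, against 339, 331 and 354 CPM in controls. Every knockdown library was again below every control, with a log2 fold change of -0.46 (SE 0.11, adjusted p = 0.0649). SNHG1, the host of SNORD22 and SNORD25 to SNORD28, measured 103, 135 and 113 CPM in knockdowns, against 139, 148 and 165 CPM in controls, and ZFAS1, the host of the SNORD12 family, measured 44.1, 39.6 and 46.9 CPM, against 50.7, 47.8 and 55.9 CPM. Both were lower in all 3 knockdown libraries than in any control, with log2 fold changes of -0.37 (SE 0.17, adjusted p = 0.281) and -0.24 (SE 0.11, adjusted p = 0.294).

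SNHG5, the host of SNORD50B, measured 10.3, 13.001 and 10.8 CPM in knockdowns, against 11.8, 15.05 and 17.4 CPM in controls, and its groups overlapped. SNHG6, the host of SNORD87, measured 32.4, 27.6 and 25.5 CPM in knockdowns, against 35.3, 34.3 and 29.5 CPM in controls, also with overlap. The sixth C/D box host went the other way: SNHG16, with SNORD1A, SNORD1B and SNORD1C, measured 92.3, 92.6 and 98.2 CPM in knockdowns, against 81.2, 82.7 and 67.5 CPM in controls. All 3 knockdown libraries were above the highest control, with a log2 fold change of 0.29 (SE 0.27, adjusted p = 0.627).

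The 2 other H/ACA box hosts were also not lower. SNHG7, which carries SNORA17A and SNORA17B, measured 22.0, 25.3 and 25.7 CPM in knockdowns, against 16.6, 20.7 and 17.9 CPM in controls, with no overlap and a log2 fold change of 0.40 (SE 0.21, adjusted p = 0.366). SNHG15, which carries SNORA9, measured 44.2, 61.0 and 57.7 CPM in knockdowns, against 41.7, 45.4 and 43.4 CPM in controls, and knockdown replicate 1 lay within the control range. SNHG12, which carries both kinds (SNORD99, SNORA16A, SNORA44 and SNORA61), measured 20.4, 22.7 and 16.2 CPM in knockdowns, against 22.8, 20.1 and 21.5 CPM in controls, and overlapped.

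In all, the groups did not overlap for 6 of the 10 hosts, 4 lower and 2 higher in the knockdowns, where 31.1% of all genes tested did not overlap (15.8% lower, 15.4% higher). The median log2 fold change was -0.23 over the 10 hosts and 0.00 over all genes tested.

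**Figure D2:**
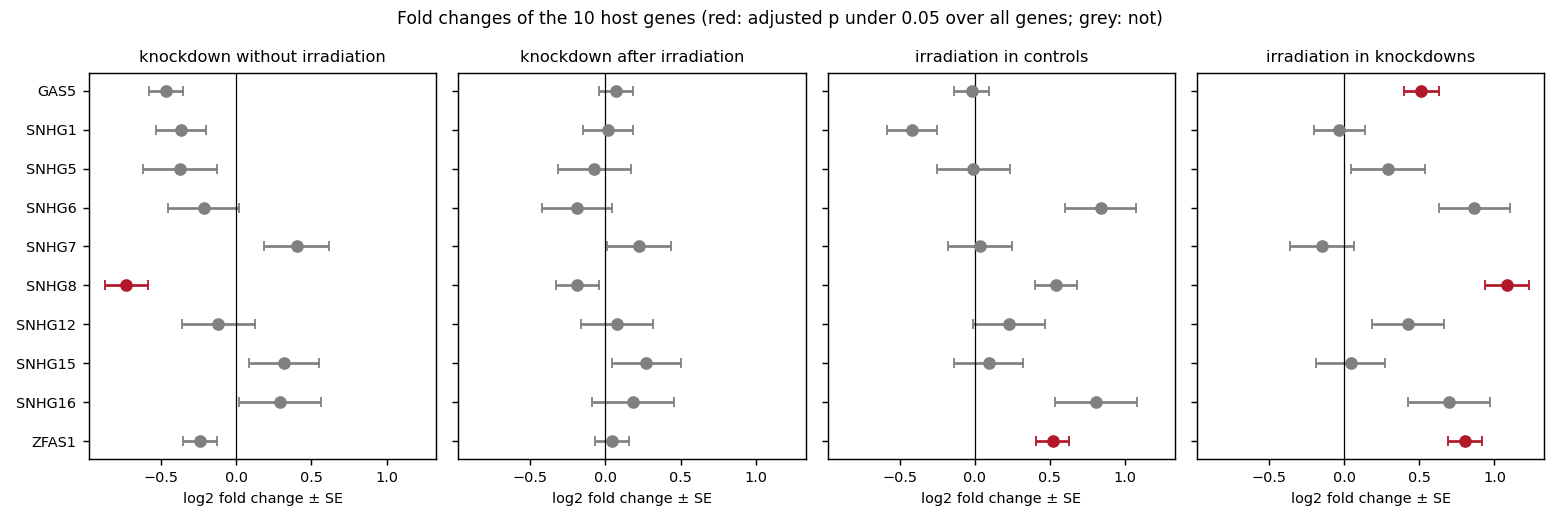
Log2 fold change ± SE (horizontal axes) of the 10 hosts in 4 comparisons, red where the adjusted p over all genes was under 0.05. SNHG8 is red at -0.73 for knockdown without irradiation, no host is red for knockdown after irradiation, and ZFAS1 is red in both irradiation panels, at 0.52 in controls and 0.80 in knockdowns.

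Same-numbered knockdown and control libraries deviated together, and were treated as pairs in a second fit. Within the 3 non-irradiated pairs, 6 hosts were lower in the knockdown in 3 of 3 pairs (GAS5, SNHG1, SNHG5, SNHG6, SNHG8 and ZFAS1). Another 3 were higher in 3 of 3 (SNHG7, SNHG15 and SNHG16), and SNHG12 was mixed. The share of all genes with the same direction in 3 of 3 pairs was not counted, so these directions are not shown to be particular to the hosts. The fit with the replicate number as a block called 8 of the 10 hosts, 5 lower and 3 higher, where it called 27.8% of all genes (14.1% lower, 13.7% higher). In that fit SNHG8 (log2 fold change -0.73, adjusted p = 8.58e-05), GAS5 (-0.47, adjusted p = 0.000771), SNHG1 (-0.37, adjusted p = 0.00940), ZFAS1 (-0.24, adjusted p = 0.0135) and SNHG5 (-0.37, adjusted p = 0.0425) fell. SNHG7 (0.40, adjusted p = 0.00498), SNHG15 (0.31, adjusted p = 0.0137) and SNHG16 (0.30, adjusted p = 0.0229) rose in it. On simulated counts with pairs, 9.6% of the calls of the blocked fit were false. A list of 20 G2/M genes was unevenly spread over the same pairs, its mean log2 CPM in the knockdown minus the control being -0.89, 2.76 and 2.06 in pairs 1, 2 and 3, and its part in the host results was not tested.

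**Figure D3:**
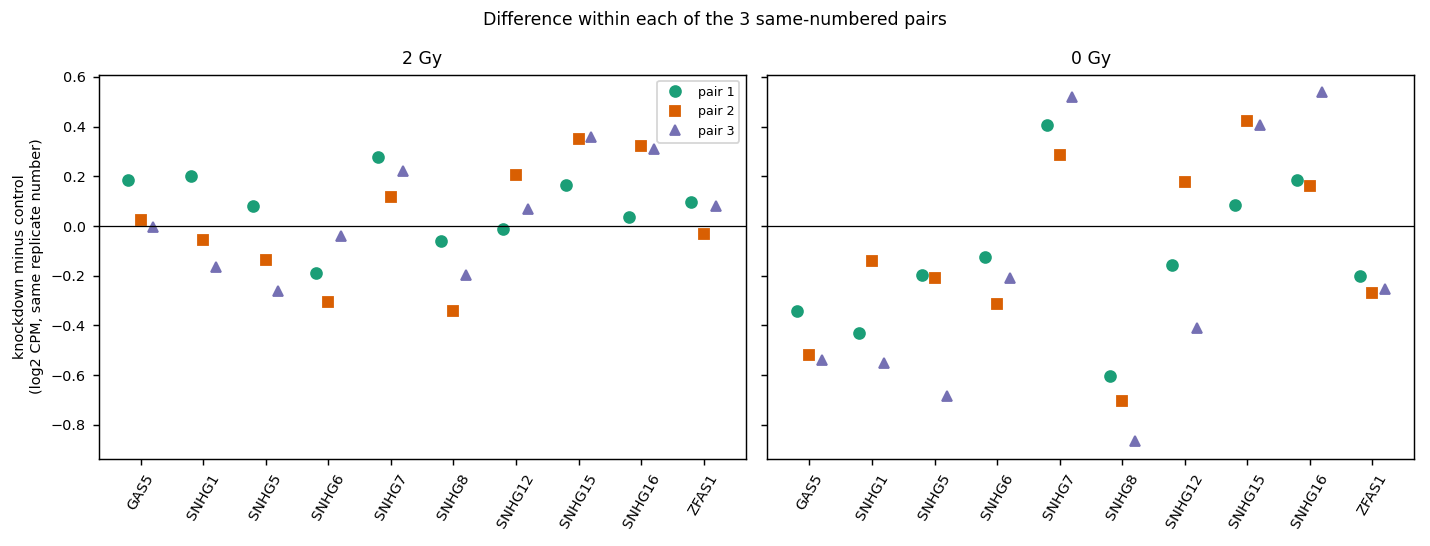
Log2 CPM in the knockdown minus that in the same-numbered control (vertical axis) for each host and pair, with 2 Gy on the left and 0 Gy on the right. At 0 Gy the 3 points of SNHG8 lie between -0.87 and -0.61, while at 2 Gy they lie between -0.34 and -0.06.

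After irradiation, knockdown and control libraries overlapped for all 10 hosts, and none was called, where 0.297% of all genes were called and 13.5% did not overlap. No host had an unadjusted p under 0.05 in edgeR without the block, where 9.3% of all genes had one, and DESeq2 called 0. SNHG8 measured 112, 79.1 and 83.0 CPM in knockdown irradiated libraries, against 117, 100.2 and 95.02 CPM in control irradiated libraries, with a log2 fold change of -0.19 (SE 0.14, adjusted p = 0.752). GAS5 measured 368, 376 and 315 CPM in knockdowns, against 323, 370.0 and 316 CPM in controls, with a log2 fold change of 0.07 (SE 0.11, adjusted p = 0.920). For SNHG8, knockdown replicates 2 and 3 lay below every control library, and the overlap came from replicate 1 alone. For GAS5 the knockdown libraries spanned the control range. SNHG8 had -0.27 (adjusted p = 0.253) and GAS5 0.01 (adjusted p = 0.979) without the irradiated libraries numbered 1, and again no host was called.

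SNHG6 and SNHG8 were lower in the knockdown in 3 of 3 irradiated pairs, SNHG7, SNHG15 and SNHG16 were higher in 3 of 3, and the other 5 hosts were mixed. These 5 directions are the ones the same genes had in the non-irradiated pairs. How many of all genes kept their direction in this way was not counted. With the block, SNHG15 was the 1 host called (log2 fold change 0.29, adjusted p = 0.0357), where 11.5% of all genes were called. The other hosts of these directions were not called in the blocked edgeR fit. Their unadjusted p was 0.0172 for SNHG8, 0.0207 for SNHG16, 0.0283 for SNHG6 and 0.0291 for SNHG7. SNHG15 measured 72.7, 46.5 and 48.8 CPM in knockdowns, against 64.7, 36.4 and 38.1 CPM in controls, and within each pair the knockdown was the higher library. Its value without the irradiated libraries numbered 1 was 0.35 (adjusted p = 0.231, no block). The median log2 fold change was 0.06 over the hosts and -0.01 over all genes, and 0.02 over the hosts without the libraries numbered 1. The mean log2 CPM of the G2/M list, knockdown minus control, was -0.66, -1.22 and -1.20 in the irradiated pairs, and its part in these values was not tested.

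No gene of the 17191 was called for the difference between the 2 knockdown effects (interaction of Dox and irradiation) by edgeR, with or without the block, so the background share was 0%. DESeq2 called 1 gene, which was no host, and 350 genes (2%) had an unadjusted p under 0.05. Of the hosts these were GAS5, with an interaction of 0.53 on the log2 scale (SE 0.16, unadjusted p = 0.00617), and SNHG8, with 0.54 (SE 0.20, unadjusted p = 0.0193). Their adjusted p was 1.00, or 0.173 for GAS5 and 0.179 for SNHG8 with the block. The interactions were 0.48 for GAS5 and 0.47 for SNHG8 without the irradiated libraries numbered 1. The smaller knockdown values of these 2 genes after irradiation are therefore not shown to differ from those without it.

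Irradiated knockdown cells were then set against non-irradiated knockdown cells. SNHG8, ZFAS1 and GAS5 were higher, 3 of 10 hosts called where 3.58% of all genes were called and 2.18% were called higher. The groups did not overlap for 5 hosts, all higher (GAS5, SNHG6, SNHG8, SNHG16 and ZFAS1), where 29.8% of all genes did not overlap and 15.8% were higher. SNHG8 had 112, 79.1 and 83.0 CPM in irradiated knockdowns, against 41.8, 45.1 and 42.4 CPM in non-irradiated knockdowns, so that the lowest irradiated library was well above the highest non-irradiated one. Its log2 fold change was 1.08 (SE 0.14, adjusted p = 0.00399), and 0.91 (adjusted p = 0.000190) without replicate 1 of both irradiated groups.

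ZFAS1 had 71.4, 79.5 and 76.9 CPM in irradiated knockdowns, against 44.1, 39.6 and 46.9 CPM in non-irradiated knockdowns, a log2 fold change of 0.80 (SE 0.11, adjusted p = 0.00499). Here replicate 1 was the lowest irradiated library, and without it and its control partner the value was 0.85 (adjusted p = 0.000543). GAS5 had 368, 376 and 315 CPM, against 267, 231 and 244 CPM, with a log2 fold change of 0.51 (SE 0.11, adjusted p = 0.0349), and 0.48 (adjusted p = 0.0181) without both irradiated libraries numbered 1. Its call was lost in 5 of 6 fits that left out 1 knockdown library, with adjusted p from 0.0606 to 0.159. It was also lost with library size alone (adjusted p = 0.0841), with no filter on low counts (0.0673), with only the libraries compared in the fit (0.0686) and without both non-irradiated libraries numbered 1 (0.0671). SNHG6 had 69.4, 45.04 and 41.0 CPM, against 32.4, 27.6 and 25.5 CPM (log2 fold change 0.86, adjusted p = 0.0701). SNHG16 had 208, 116 and 136 CPM, against 92.3, 92.6 and 98.2 CPM (0.70, adjusted p = 0.169). Replicate 1 was the highest irradiated library for both genes. Without the irradiated libraries numbered 1, SNHG6 had a log2 fold change of 0.60 and SNHG16 one of 0.42, and both were called (adjusted p = 0.0159 and 0.0349).

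In cells without Dox, irradiated controls were compared with non-irradiated controls. ZFAS1 was higher, 1 of 10 hosts called where 2.26% of all genes were called and 1.38% were called higher. ZFAS1 had 66.9, 81.4 and 72.7 CPM in irradiated controls, against 50.7, 47.8 and 55.9 CPM in non-irradiated controls, with no overlap, and its log2 fold change was 0.52 (SE 0.11, adjusted p = 0.0388). Its call held without irradiated replicate 1 (adjusted p = 0.0361) and without that of both irradiated groups (0.58, adjusted p = 0.00817), and was lost when any other 1 of the 6 control libraries was left out (adjusted p = 0.0641 to 0.166), with library size alone (0.111) and with only the libraries compared in the fit (0.160).

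SNHG8 had 117, 100.2 and 95.02 CPM in irradiated controls, against 63.6, 73.5 and 77.3 CPM in non-irradiated controls, with no overlap (log2 fold change 0.54, SE 0.14, adjusted p = 0.0683). SNHG6 had 79.1, 55.7 and 42.2 CPM, against 35.3, 34.3 and 29.5 CPM (0.84, SE 0.24, adjusted p = 0.0808), and SNHG16 had 203, 92.7 and 109.5 CPM, against 81.2, 82.7 and 67.5 CPM (0.81, SE 0.27, adjusted p = 0.123). Both were again highest in irradiated replicate 1. Without the irradiated libraries numbered 1, SNHG6 had a log2 fold change of 0.56 and was called (adjusted p = 0.0304), and SNHG16 had 0.39 and was not (adjusted p = 0.0707). SNHG8 had 0.44 and was called (adjusted p = 0.0230).

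SNHG1 was the 1 host lower in every irradiated control, at 124, 115 and 101 CPM, against 139, 148 and 165 CPM in non-irradiated controls. Its log2 fold change was -0.42 (SE 0.17, adjusted p = 0.178), and -0.49 (adjusted p = 0.0475) without the irradiated libraries numbered 1. In knockdown cells SNHG1 had 143, 110.3 and 89.7 CPM when irradiated, against 103, 135 and 113 CPM when not, and the groups overlapped. The other 5 hosts overlapped between irradiated and non-irradiated controls. In all, 4 hosts were higher and 1 lower with no overlap in controls, where 27.6% of all genes did not overlap (13.7% higher, 13.9% lower).

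The median log2 fold change with irradiation was 0.47 over the hosts in knockdown cells and 0.16 in control cells, beside -0.00 over all genes in both. These 2 comparisons share no library, but both set the same 2 tables against each other. Scaling by library size alone moved the median of all genes to -0.15 in knockdowns and -0.16 in controls, and the hosts' medians to 0.32 and -0.01. Without the irradiated libraries numbered 1, the hosts' medians were 0.31 in knockdowns and -0.03 in controls.

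Some ribosomal protein genes, which also start with pyrimidine tracts, were higher in the irradiated table too. A list of 45 such genes was kept apart from the list of protein-coding snoRNA hosts described below. Whether any of the 45 also hosts a snoRNA was not checked. Of these, 18 were called higher in irradiated knockdowns, where 2.18% of all genes were, and 10 in irradiated controls, where 1.38% were. None was called lower, and the median log2 fold changes were 0.68 and 0.62. RPS10, a protein of the small subunit, had -0.05 in knockdowns and 0.00 in controls. In the fit without the irradiated libraries numbered 1, 28 were called higher in knockdowns and 17 in controls, where 5.28% and 2.70% of all genes were, with medians of 0.53 and 0.41. RPL26, a protein of the large ribosomal subunit, differed most, with a log2 fold change of 3.72 in knockdowns and 3.68 in controls, and 3.62 and 3.56 without those libraries. It measured 412 to 543 CPM in knockdown and control libraries of the irradiated table, against 34.1 to 39.0 CPM in those of the non-irradiated table. Its 6 libraries per table were tightly grouped whatever the Dox status.

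Of 29 protein-coding snoRNA hosts, 13 were called higher in irradiated knockdowns, where 2.18% of all genes were, and 7 in irradiated controls, where 1.38% were. The medians were 0.65 and 0.56. Without the irradiated libraries numbered 1 these were 16 and 11, where 5.28% and 2.70% of all genes were called higher, with medians of 0.50 and 0.40. RPL17 (1.16 in knockdowns, 1.11 in controls), RPL5 (0.89 and 0.72) and RPL4 (0.87 and 0.73), all proteins of the large subunit, were called in both, with or without those libraries. In the knockdown without irradiation only RPL13 of this list was called, lower at -1.32 (adjusted p = 0.0333), and the list median was -0.06. The blocked fit called 4 of the 29 lower and 2 higher, where it called 27.8% of all genes.

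Another 16 non-coding snoRNA hosts passed the filter, of 20 listed. In the knockdown without irradiation 2 of them fell, where 1.20% of all genes were called lower. SNHG32 measured 112, 94.3 and 86.0 CPM in knockdowns, against 169, 209 and 217 CPM in controls (log2 fold change -1.03, adjusted p = 0.00347). EPB41L4A-AS1 measured 19.96, 21.6 and 18.3 CPM in knockdowns, against 37.6, 40.7 and 36.9 CPM in controls (-0.94, adjusted p = 0.0130). The list median was 0.29, with 6 genes higher and 3 lower in every knockdown library, where 15.4% of all genes were higher and 15.8% lower without overlap. The blocked fit called 8 of the 16 higher and 3 lower, where it called 13.7% of all genes higher and 14.1% lower.

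After irradiation none of these 16 differed between knockdown and control by edgeR or by DESeq2 at an adjusted p under 0.05. Of the 16, 4 had an unadjusted p under 0.05 in edgeR, where 9.3% of all genes had one. The blocked fit called 4 higher, where it called 934 of 17191 genes higher. DANCR, which is among the 16, was called higher without the irradiated libraries numbered 1 (0.55, adjusted p = 0.0388), where 0.366% of all genes were. With irradiation in knockdowns EPB41L4A-AS1 (0.95, adjusted p = 0.0109), SNHG29 (0.59, adjusted p = 0.0221) and SNHG3 (0.57, adjusted p = 0.0482) rose, where 2.18% of all genes were called higher. In controls SNHG32 fell with irradiation (-0.59, adjusted p = 0.0402), where 2.26% of all genes were called in either direction. These 4 values were 0.97, 0.54, 0.67 and -0.55 without the irradiated libraries numbered 1, and all 4 passed the threshold. In that fit DANCR also rose with irradiation in both knockdowns (0.44) and controls (0.51), SNHG3 rose in controls (0.53), and SNHG11 fell in knockdowns (-0.65). Of all genes, the fit called 10.3% for irradiation in knockdowns and 4.97% in controls.

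Few genes of the machinery around these RNAs passed the same test. Of 18 nonsense-mediated decay factors 0 were called by edgeR in any of the 5 comparisons of all 12 libraries, and DESeq2 called 1, lower in irradiated knockdowns. At an unadjusted p under 0.05 there was 1 for knockdown without irradiation (UPF1, the helicase of the decay pathway, at 0.35), where 17.4% of all genes had one. There were 0 for knockdown after irradiation, where 9.3% of all genes had one. For irradiation there were 3 in knockdowns and 2 in controls, where 20.9% and 21.8% of all genes had one. The blocked fit called 3 of the 18 higher for knockdown without irradiation, where it called 13.7% of all genes higher. It called 2 higher for knockdown after irradiation, where it called 934 of 17191 genes higher. UPF2, a partner of UPF1, was called higher in irradiated knockdowns by edgeR without the irradiated libraries numbered 1 (0.37, adjusted p = 0.0290). In that fit 5.28% of all genes were called higher. Of 18 proteins of snoRNA particles and their assembly, edgeR called 1, ZNHIT6, an assembly factor of C/D box particles, higher in irradiated knockdowns (0.60, adjusted p = 0.0305, and 0.49, adjusted p = 0.00893, without the irradiated libraries numbered 1). At an unadjusted p under 0.05 there were 9 of the 18 for irradiation in knockdowns, where 20.9% of all genes had one, and 8 for irradiation in controls, where 21.8% had one. DESeq2 called 3 higher and 1 lower in irradiated knockdowns and 1 higher in irradiated controls. With the irradiated libraries numbered 1 left out, edgeR called 5 higher and 1 lower in irradiated knockdowns, where 10.3% of all genes were called. It called 1 higher in irradiated controls, where 4.97% were called. FBL, the methyltransferase of C/D box particles, had 1.04 in irradiated controls (adjusted p = 0.0648), and 0.65 (adjusted p = 0.00514) without those libraries. The blocked fit called 3 of the 18 lower and 2 higher for knockdown without irradiation, a share equal to the 27.8% it called of all genes.

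**Figure D4:**
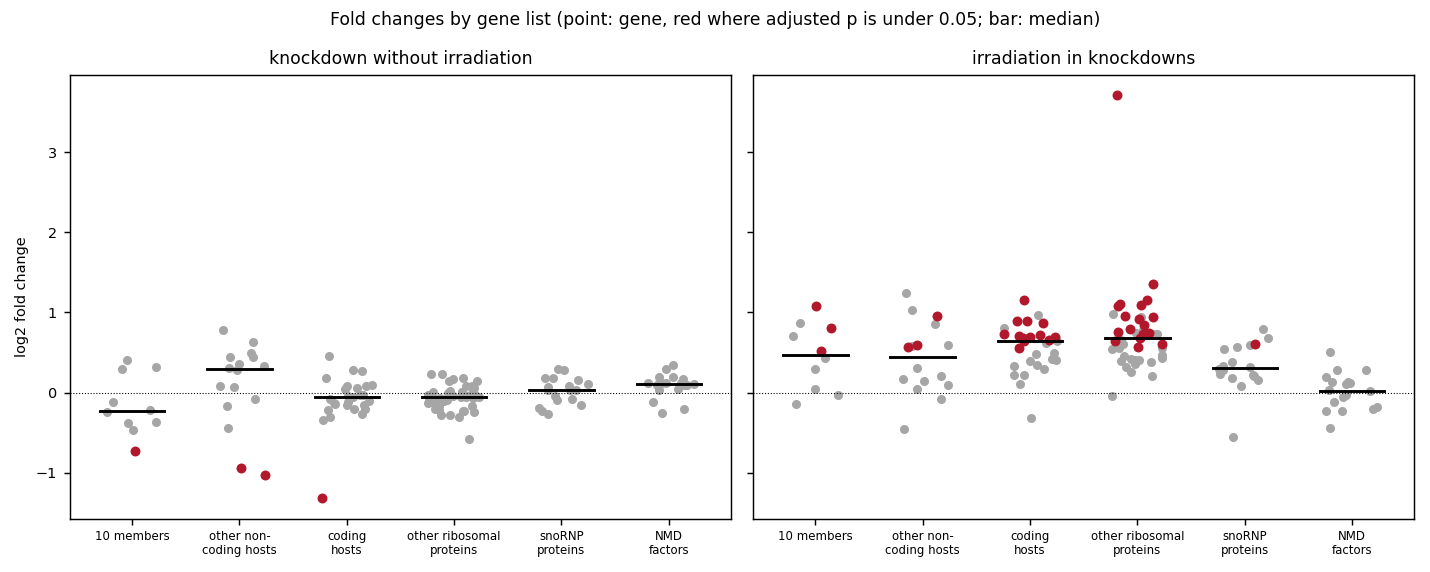
Log2 fold changes (vertical axis) of the genes of 6 lists for knockdown without irradiation (left) and irradiation in knockdowns (right); points are genes, red where the adjusted p was under 0.05, and bars are medians. On the right the medians of the 10 hosts (0.47), coding hosts (0.65) and other ribosomal proteins (0.68) all lie above 0, and that of the nonsense-mediated decay factors is 0.02.

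The hosts did not vary alike among themselves. By the root mean square difference of log2 CPM, each centred on its own mean over the 12 libraries, the closest pair was SNHG7 with SNHG15 (0.127), followed by SNHG1 with SNHG5 (0.225) and GAS5 with ZFAS1 (0.241), and the farthest was SNHG7 with SNHG8 (0.627). SNHG7 and SNHG15 are both H/ACA box hosts, and SNHG8 is the third. Nearest to the mean pattern of the 10 hosts among all other genes were NOL10 (0.0677), GYG1 (0.0687), MAK16 (0.0710), ANP32A (0.0747), ATP5F1 (0.0751) and TCEB1 (0.0782), over the same 12 libraries. SNHG12 was the host closest to that mean, at 0.153.

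The tables also hold rows for the snoRNAs, and 26 such rows lie inside 9 of the hosts, with none found inside GAS5. Exon here means any exon stretch listed for a gene, with all its transcripts pooled. A snoRNA in such a stretch may therefore lie in an intron of other transcripts of its host. The 21 rows that lie fully in a host exon had 0 counts in all 12 libraries. Counting error alone would allow up to 3 counts per row and library. That bound does not cover how reads over overlapping genes were assigned, so it sets no limit on these snoRNAs. The 4 that lie in an intron all had counts, 623 in sum, and SNORD30, partly in an exon of SNHG1, had 2. The same held in the whole tables: 0 of 150 snoRNA rows fully inside an exon of another gene had a count, against 212 of 391 rows in an intron (54.2%), 26 of 47 partly in an exon (55.3%) and 28 of 313 outside any other gene (8.9%). How reads over overlapping genes were assigned is not given in the sources used here, and the levels of exonic snoRNAs cannot be read from these tables. The counts of a host may include reads from such snoRNA stretches.

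**Figure D5:**
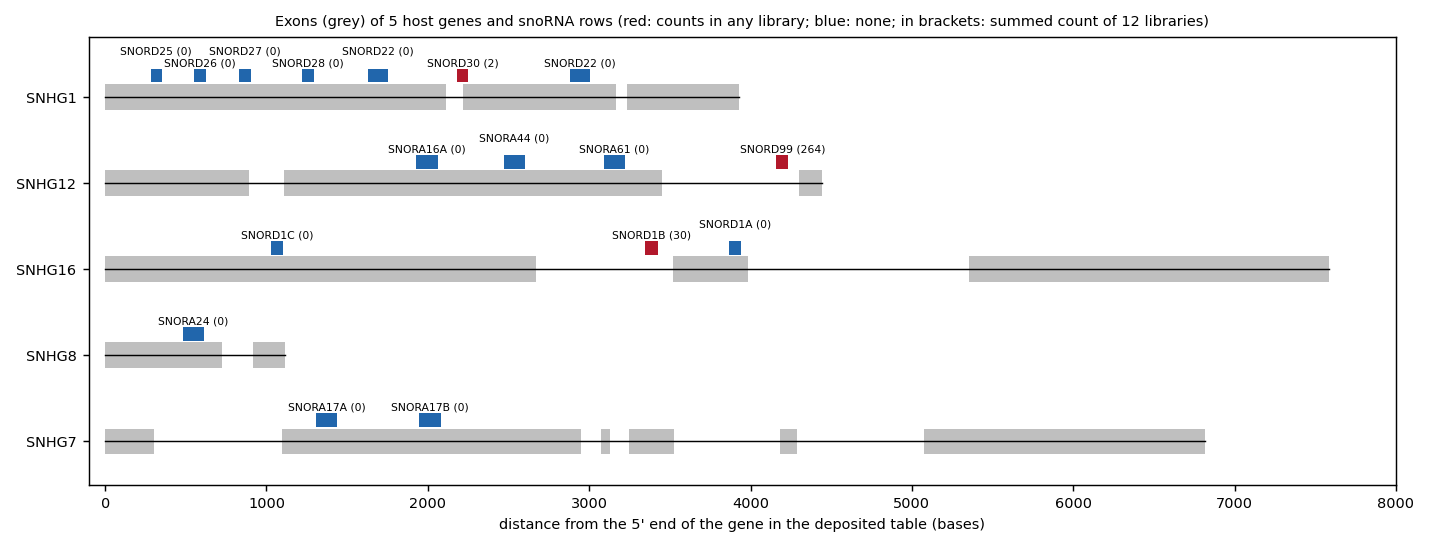
Exons (grey) of 5 hosts and the snoRNA rows inside them, by distance in bases from the start of the gene in the deposited table; red rows had counts and blue rows had none, with the count summed over 12 libraries in brackets. SNORD99 (264) and SNORD1B (30) lie in introns, and each blue row lies over an exon.

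The 3 snoRNAs of ZFAS1 show the difference within a single gene, and their sequences are printed because they resemble each other while their counts do not. SNORD12B (chr20:49280319-49280409) and SNORD12C (chr20:49278940-49279028) are intronic and had 296 and 33 counts. SNORD12 (chr20:49280683-49280772) lies in an exon stretch of the pooled ZFAS1 transcripts and had 0. Capitals mark the first C box (TGATGA) and the last D box (CTGA), searched on the sense strand.
SNORD12B: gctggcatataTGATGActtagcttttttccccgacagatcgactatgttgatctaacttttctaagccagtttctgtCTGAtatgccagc
SNORD12C: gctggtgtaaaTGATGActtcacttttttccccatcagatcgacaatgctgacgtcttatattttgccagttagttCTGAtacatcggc
SNORD12: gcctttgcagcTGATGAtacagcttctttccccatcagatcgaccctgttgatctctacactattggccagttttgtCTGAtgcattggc
SNORD12B had 12, 31 and 19 counts in knockdown irradiated libraries, 7, 22 and 16 in control irradiated, 32, 50 and 48 in knockdown non-irradiated and 24, 15 and 20 in control non-irradiated libraries, not scaled for depth. After scaling, the non-irradiated knockdowns were all above their controls, with a log2 fold change of 0.76 (SE 0.41, adjusted p = 0.364), while ZFAS1 itself had -0.24. The irradiated knockdowns were all below the non-irradiated ones for SNORD12B, with a log2 fold change of -1.10 (SE 0.40, adjusted p = 0.152), while ZFAS1 had 0.80. Without the irradiated libraries numbered 1 the value of SNORD12B was -0.81 (adjusted p = 0.137). These counts are low, the libraries were made from polyA+ RNA, and neither value of SNORD12B passed the threshold.

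SNORD99, in an intron of SNHG12 (chr1:28578749-28578822, minus strand), had 264 counts beside 6952 of its host, and SNORD12B had 296 beside 18519 of ZFAS1. Its groups overlapped in all 4 comparisons, with log2 fold changes between -0.16 and 0.17.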

How the data were processed

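PolyA+ RNA-seq was made from 12 LNCaP-shPRMT5 libraries. Per the file headers, the 2 deposited tables (non-irradiated and irradiated) hold whole-number read counts per gene. Per the submitters' processing notes, STAR 2.5, featureCounts (Subread 1.5.3) and edgeR 3.20.8 were used with GRCh38. No source used here gives the strand or multi-mapping settings. Every column was matched to a sample (0 unknown). The main test was edgeR 4.0.16 (R 4.3.3) on the counts as deposited: filterByExpr (minimum count 10, total 15), TMM, a robust quasi-likelihood fit of 4 group means to all 12 libraries (8 residual degrees of freedom, biological coefficient of variation 0.216), and Benjamini-Hochberg over 17191 genes, called at an adjusted p of 0.05. The SE is the fold change divided by the root of F. CPM used TMM-scaled library sizes (factors 0.900 to 1.08). DESeq2 1.42.0 was an alternative.

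Same-numbered knockdown and control libraries of a table deviated together: the correlations of their deviations from the group means were 0.233, 0.255 and 0.296 without irradiation and 0.775, 0.613 and 0.607 after it. The pairing therefore comes from the data and the numbers in the sample titles, and the fit with the replicate number as a block is given beside the main one. Across the tables, the correlations ran from -0.15 to 0.14, so the main irradiation results use no pairing, and a block on the shared numbers was run only as an alternative.

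The PRMT5 check by exact permutation (3 against 3, 2-sided) gave p = 0.1 in each table, the smallest that design allows. Library totals were 14801939 to 33158865 counts. Replicates differed by more than counting error (chi-square per gene 8.96 to 129), and floors cover counting error only. On counts simulated for knockdown without irradiation (16914 genes), the main fit recovered 46% of genes changed by 1 on the log2 scale and 79% of those changed by 2, with 2.34% of calls false. With simulated pairs (16966 genes) the blocked fit recovered 75% and 85%, with 9.6% false.

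All 10 members, the called genes of other lists and the 6 genes most like the members' mean were named by rule. UPF1 is among the decay factors with the smallest p. RPS18, SNHG18 and MEG8 were listed at 0 and not tested, and SNHG26 and SNHG30 matched no row. The members and lists were chosen with earlier results of these data known. Start windows come from RefSeq (GRCh38.p14), and snoRNA sequences from GENCODE 29 transcripts (GRCh38). A marker gene and an overlapping gene are not reported here.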

Additional observations from a re-analysis of the deposited data

How the results depend on the processing

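Counts of called hosts moved with the setting, and the genes called of all genes tested in the same fit are given in brackets. For knockdown without irradiation the count was 1 (265 of 17191). It was 8 with the replicate block on the paired libraries (4776 of 17191), 2 with DESeq2 (1047 of 16161) and 2 with only the libraries compared in the fit (1486 of 16069). It was 0 without both non-irradiated libraries numbered 1 (196 of 17429), and 0 to 1 when each library was left out in turn (31 to 341 genes). For knockdown after irradiation it was 0 (51 of 17191), and 1 with the replicate block (1974 of 17191). For irradiation in controls it was 1 (389 of 17191). It was 2 with the replicate block (965 of 17191), 0 with library size only (614 of 17191) and 2 with no filter on low counts (592 of 34300). It was 3 with DESeq2 (1377 of 17161) and 0 with only the libraries compared (64 of 16335). It was 0 without both non-irradiated libraries numbered 1 (339 of 17429) and 4 without both irradiated libraries numbered 1 (868 of 17464). When each library was left out it was 0 to 1 (24 to 341 genes). For irradiation in knockdowns it was 3 (615 of 17191). It was 4 with the replicate block (1157 of 17191) and 4 with DESeq2 (1438 of 17161). It was 2 with library size only (845 of 17191), 2 with no filter (577 of 34300) and 2 with only the libraries compared (344 of 16365). It was 2 without both non-irradiated libraries numbered 1 (275 of 17429) and 5 without both irradiated ones (1806 of 17464). When each library was left out it was 2 to 3 (76 to 280 genes). Leaving out the libraries numbered 1 was chosen after seeing the data. For the interaction no host was called in any setting, and over all genes 47 were called without both non-irradiated libraries numbered 1, against 0 with all 12 libraries. The cause of these moves was not tested.

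Replicate numbers across the tables were not pairs, and the block used for the irradiation comparisons rests on shared numbers alone. It moved the calls over all genes from 389 to 965 in controls and from 615 to 1157 in knockdowns. In controls 1 of 3 libraries correlated best with its own number, and in knockdowns 0 of 3. For knockdown without irradiation all-gene calls were 265, against 4776 with the replicate block and 1047 with DESeq2, and for knockdown after irradiation 51, against 1974 and 273.

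Some log2 fold changes reversed in other settings. Their values in the main fit reached 0.29 for SNHG5 (irradiation in knockdowns) and 0.23 for SNHG12 (irradiation in controls). With the replicate block SNHG1 had -0.00453 for knockdown after irradiation. With library size only, SNHG7 had -0.13 and SNHG15 -0.0761 for irradiation in controls, and SNHG15 -0.11 in knockdowns. With no filter, GAS5 had 0.0109 and SNHG5 0.0234 for irradiation in controls, and SNHG6 an interaction of -0.00119. Without the non-irradiated libraries numbered 1, SNHG7 had -0.0345 for irradiation in controls and SNHG15 -0.0833 in knockdowns. Without the irradiated libraries numbered 1, SNHG1 had -0.11 for knockdown after irradiation. In that setting irradiation in controls gave GAS5 0.00128, SNHG7 -0.18, SNHG12 -0.0629 and SNHG15 -0.23, irradiation in knockdowns gave SNHG5 -0.0276 and SNHG15 -0.19, and the interaction was 0.0396 for SNHG15 and 0.0291 for SNHG16.

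When each library was left out in turn, the following log2 fold changes crossed 0. For knockdown without irradiation SNHG12 ran from -0.23 to 0.00676. For knockdown after irradiation SNHG1 ran from -0.19 to 0.16, SNHG5 from -0.41 to 0.12, SNHG6 from -0.47 to 0.0859, SNHG7 from -0.0493 to 0.43, SNHG12 from -0.15 to 0.37, SNHG16 from -0.12 to 0.60 and ZFAS1 from -0.0188 to 0.11. For irradiation in controls GAS5 ran from -0.0833 to 0.0233, SNHG5 from -0.21 to 0.12, SNHG7 from -0.18 to 0.18, SNHG12 from -0.0631 to 0.41 and SNHG15 from -0.23 to 0.25. For irradiation in knockdowns SNHG1 ran from -0.22 to 0.12, SNHG5 from -0.0275 to 0.45, SNHG7 from -0.40 to 0.0223 and SNHG15 from -0.19 to 0.16. For the interaction SNHG5 ran from -0.0227 to 0.51, SNHG6 from -0.25 to 0.31, SNHG7 from -0.45 to 0.0367, SNHG12 from -0.0292 to 0.49, SNHG15 from -0.29 to 0.28 and SNHG16 from -0.40 to 0.32, and the median of the 10 hosts from -0.0259 to 0.39.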
